A study of Danio rerio with 16 samples.

Results

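Male and female whole brains of 3 zebrafish (Danio rerio) strains, AB, SH (Scientific Hatcheries) and HSB, were compared for sex-biased gene expression. The comparison used 12 of the 16 RNA-seq libraries of the study, chosen by their labels: for each strain 2 pools of females and 2 pools of males. Each library held RNA of 10 fish of the same sex, aged 17 weeks and sexually mature, so the spread between libraries is that between pools of different fish. AB and SH came from commercial suppliers, and HSB is a line of wild-caught origin bred for high stationary behavior, some of whose fish had been behaviorally tested before sampling. The 4 libraries of the strain LSB, bred for low stationary behavior, were left out, because earlier results from these data had put the sex labels of its pools numbered 2 in doubt. A pool cannot show how single fish vary.

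In teleost fish the brain makes its own sex steroids throughout adult life. Aromatase B, which turns androgens into estrogens, is made in radial glia, the stem-like glia that line the ventricles of the fish brain. Hormones that set body growth and energy use also act in the brain, among them thyroid hormone, which deiodinases activate within the tissue, and insulin-like growth factors. In a whole brain, sex differences in such genes lie on top of whatever differences exist in the make-up of the tissue, and in bulk RNA more cells of a type cannot be told apart from more RNA per cell.

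Expression was measured in CPM, the number of reads of a gene for every 1000000 reads counted on genes in that library. Depth overlapped between the sexes, at 18398865 to 35737825 counted reads in females and 23064223 to 32446325 in males. No measured marker of blood, retina, pituitary or gonad passed the limma test used throughout (0 of 10, 0 of 24, 0 of 3 and 0 of 4). At an unadjusted p under 0.05 the numbers were 1, 0, 0 and 0. Of 19 pituitary and 45 gonad symbols only 3 and 4 were measured, so these lists could show little. The summed pituitary level was higher in AB males (19.9 and 18.9 CPM) than in AB females (15.5 and 16.1 CPM). In HSB it was lower in males (11.3 and 11.6 CPM) than in females (16.1 and 17.9 CPM). Skeletal muscle, cartilage and inner ear markers did differ in places and are given with the genes they concern. The library of AB male pool 2 stood apart, with a summed level of 4706 CPM over 32 muscle genes against 506 to 659 CPM in the other 5 male and 399 to 516 CPM in the 6 female libraries.

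Sex bias was tested in all 15304 genes on log2(CPM + 0.5) with limma, with strain and pool number as covariates. A gene was called sex-biased at a Benjamini-Hochberg adjusted p under 0.05, and fold changes are male over female on that log2 scale. The added 0.5 makes the fold change of weakly expressed genes too small. In total 168 genes (1.1% of those tested) were called. Of these, 120 were male-biased (0.784%) and 48 were female-biased (0.314%), and 2215 genes (14.5%) had an unadjusted p under 0.05. Most differences were small. The median log2 fold change was 0.23 among the male-biased genes and -0.20 among the female-biased genes, and 76 of the 120 and 36 of the 48 lay under 0.3 in size. Of the called genes, only 10 male-biased and 2 female-biased ones differed by more than 1 on the log2 scale. Another 26 genes differed by more than 1 without passing the test. Over all genes the median log2 fold change was -0.019, and 5806 of the 15304 (37.9%) had a positive fold change.

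The direction of the difference was shared by AB, SH and HSB for all 168 called genes. Of all genes tested, 11.3% were higher in the males of all 3 strains and 23% in the females of all 3. Within each of the 3 strains both male pools lay above both female pools for 100 of the 120 male-biased genes (1.4% of all genes did so), and both female pools lay above both male pools for 38 of the 48 female-biased genes (1.99%). Over all 12 libraries the sexes did not overlap for 23 male-biased genes (0.229% of all genes) and 5 female-biased genes (0.0915%). These counts describe genes that the same libraries had chosen.

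**Figure D1:**
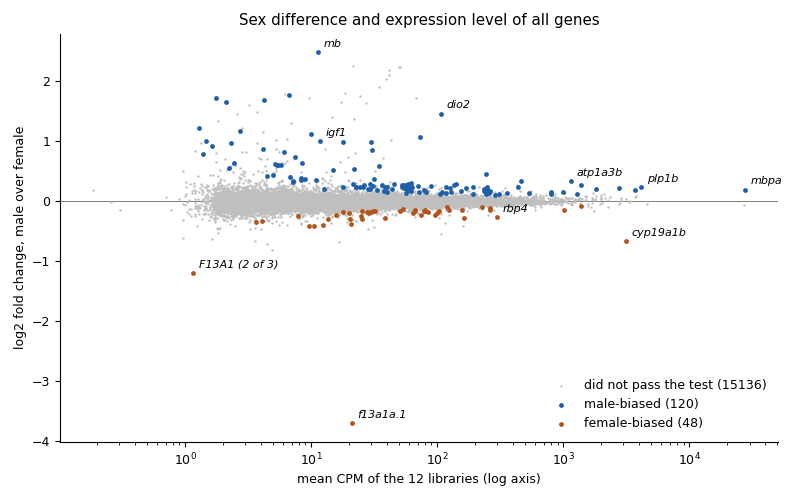
Log2 fold change (male over female) of all 15304 genes against their mean CPM over the 12 libraries (log axis), with the 120 male-biased and 48 female-biased genes in color. The called genes reach from 2.47 (mb) to -3.71 (f13a1a.1), and most lie close to 0.

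The number of called genes depended on the libraries and on the model. Without the pool number as a covariate it was 109 (85 male-biased, 24 female-biased). Leaving out a single library gave 84 genes without SH male pool 2, 89 without SH female pool 2, 90 without HSB male pool 1, 101 and 102 without HSB female pools 1 and 2, 104 without HSB male pool 2 and 108 without SH female pool 1, and 118 to 176 without any of the others. A total of 67 genes kept their call whichever library was left out. When the libraries were rescaled by the median ratio of their genes, 194 genes passed, of which 84.0% were male-biased against 71.4% as deposited.

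The clearest difference was in a single gene of thyroid hormone activation. The gene dio2 (ENSDARG00000094857) encodes type 2 deiodinase, which converts thyroxine to the active hormone triiodothyronine. Its level was 42.1 to 76.7 CPM (median 55.5) in the 6 female libraries and 110.0 to 198 CPM (median 162) in the 6 male libraries, so that the lowest male library lay above the highest female one. This was a 2.73-fold male bias, with a log2 fold change of 1.45 ± 0.041 (standard error, SE, n = 6 libraries per sex; limma, Benjamini-Hochberg adjusted p = 5.14e-10). The difference was 1.45 (AB), 1.36 (SH) and 1.53 (HSB). The SH fish had the highest dio2 in both sexes, and the sex difference had the same direction and a similar size in each strain. None of the other 15 measured genes of the thyroid list, which holds the other deiodinases, the thyroid hormone receptors, their cofactors and transporters, passed the test. The median log2 fold change of the 16 genes was -0.05, and 0.784% of all genes tested were male-biased.

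Of the 29 measured sex steroid enzymes and receptors, 1 was male-biased and 2 were female-biased, against 0.784% and 0.314% of all genes. Their median log2 fold change was -0.020. The enzyme 17-beta hydroxysteroid dehydrogenase 3 (hsd17b3), which makes testosterone from androstenedione, had 8.56 to 14.5 CPM (median 11) in females and 15 to 36.7 CPM (median 20.6) in males, without overlap. The male bias of hsd17b3 was 1.98-fold (log2 0.98 ± 0.08, adjusted p = 2.76e-05), and the difference was 0.80 (AB), 1.27 (SH) and 0.88 (HSB). Both SH male pools, at 36.7 and 35 CPM, stood above all other male pools. Aromatase B (cyp19a1b), which makes estrogens from androgens, differed in the opposite direction. Its level was 2820.3 to 5757 CPM (median 3142) in females and 1750.2 to 3118 CPM (median 2228) in males, a 1.6-fold female bias (log2 -0.68 ± 0.06, adjusted p = 5.86e-05). The sexes overlapped over the 12 libraries, since the SH male pools (2944 and 3118 CPM) reached the level of the AB and HSB female pools, but within each strain both female pools were higher. By qRT-PCR in other HSB and LSB fish, the study reported no sex bias of cyp19a1b. Also female-biased was hsd11b2, which encodes 11-beta hydroxysteroid dehydrogenase 2, which inactivates cortisol and in fish also takes part in making 11-ketotestosterone. It had 18 to 29.7 CPM (median 22.4) in females and 12.4 to 23.1 CPM (median 17.8) in males (log2 -0.38 ± 0.08, adjusted p = 0.0382) and lost its call without any 1 of 10 of the 12 libraries (adjusted p up to 0.104, without SH female pool 2). No steroid receptor passed the test, among them esr2a, esr2b and pgr with log2 fold changes of 0.13, 0.16 and -0.28 and adjusted p of 0.51, 0.197 and 0.345.

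Among insulin-like growth factors, their receptors and binding proteins, 1 of 21 measured genes was male-biased and 1 female-biased. For this list and the activin list below, the shares of all genes were 0.784% male-biased and 0.314% female-biased. Insulin-like growth factor 1 (igf1), a mediator of growth hormone action that is also made locally in the brain, was at 6.15 to 9.68 CPM (median 7.27) in females and 11.6 to 19.6 CPM (median 15.9) in males. All male libraries of igf1 lay above all female ones, with a 1.99-fold difference (log2 0.99 ± 0.076, adjusted p = 2.19e-05) that was 0.94 (AB), 0.88 (SH) and 1.15 (HSB). The related growth factor igf2a differed the other way and by far less, averaging 30.2 ± 1.8 CPM in females against 26.3 ± 1.51 CPM in males (SD, n = 6; log2 -0.20 ± 0.043, adjusted p = 0.047), and it lost its call without any 1 of 10 libraries (adjusted p up to 0.123, without SH female pool 1). Of the 18 measured genes of the activin, inhibin and follistatin list only inhbaa passed, which encodes the beta A subunit shared by activin A and inhibin A. It had 4.45 to 6.58 CPM (median 5.53) in females and 8.27 to 10.9 CPM (median 9.09) in males (log2 0.72 ± 0.073, adjusted p = 0.000255), without overlap.

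**Figure D2:**
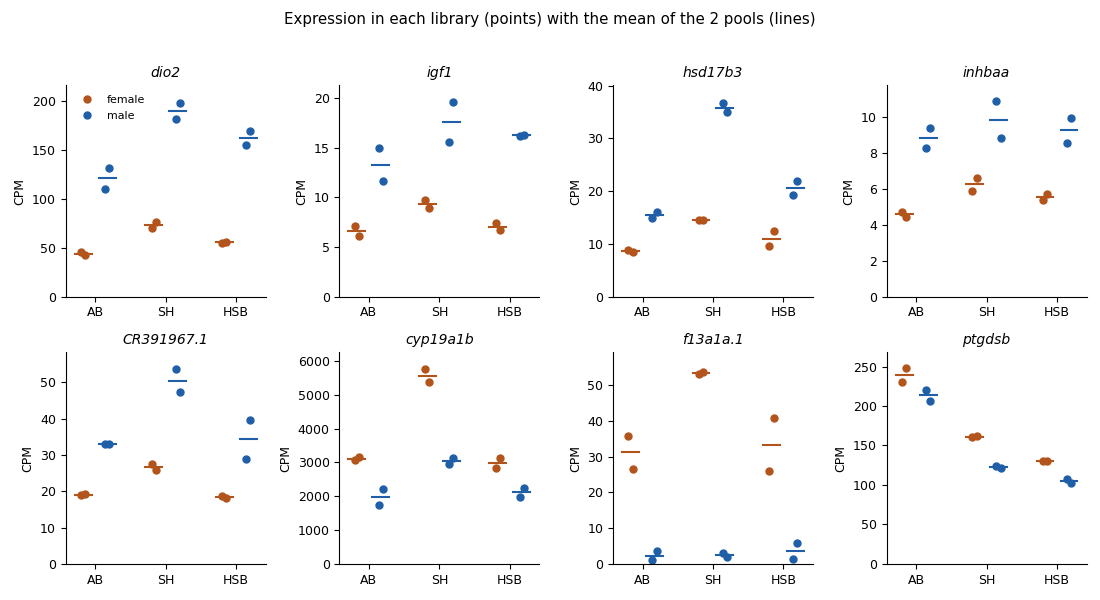
CPM of 8 sex-biased genes in each library of AB, SH and HSB (points, females and males in different colors) with the mean of the 2 pools of each strain and sex (lines). For dio2, igf1, hsd17b3, inhbaa and CR391967.1 all male libraries lie above all female ones, for f13a1a.1 the reverse holds, and cyp19a1b and ptgdsb separate the sexes within each strain.

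Neuropeptides gave a male-biased and a female-biased gene. The table's gene CR391967.1 (ENSDARG00000091377), which a newer table of gene names gives as galanin (GAL), a peptide of hypothalamic neurons, stood at 18 to 27.6 CPM (median 19.1) in females and 29 to 53.8 CPM (median 36.3) in males. The 2 ranges did not overlap, and the male bias was 1.8-fold (log2 0.85 ± 0.064, adjusted p = 2.19e-05; 0.77 (AB), 0.90 (SH) and 0.87 (HSB)). Among 59 other measured neuropeptide genes, matched by the symbols of the table, only nmu passed, as a female-biased gene (0.314% of all genes were female-biased). It encodes neuromedin U and had 3.26 to 5.88 CPM (median 3.93) in females and 2.48 to 3.98 CPM (median 3.04) in males (log2 -0.36 ± 0.078, adjusted p = 0.0447), a call that was lost without any 1 of 10 libraries (up to 0.115, without HSB male pool 1). Melanin-concentrating hormone like (pmchl), at 88.9 to 157 CPM (median 107) in females and 67.2 to 110.2 CPM (median 93.7) in males, missed the threshold (log2 -0.29 ± 0.066, adjusted p = 0.0634).

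Prostaglandin D2 synthase (ptgdsb), a lipocalin secreted by the meninges and choroid plexus in mammals, was the only gene of 17 in the prostaglandin list to pass. Of all genes, 0.314% were female-biased. The level of ptgdsb varied more between the strains than between the sexes of a strain. The females had 231 and 248 CPM in AB, 161 and 162 in SH and 131 and 130.3 in HSB. The males had 220.4 and 206, 124 and 121, and 107 and 103 CPM. Both female pools were thus higher in each strain (log2 -0.29 ± 0.037, adjusted p = 0.00203), with differences of -0.16 (AB), -0.40 (SH) and -0.31 (HSB).

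Genes that bind and convert retinol, the precursor of retinoic acid, gave 3 female-biased and 1 male-biased gene of 40 measured. The shares of all genes were 0.314% and 0.784%. The median log2 fold change of the 40 was -0.036. The cellular retinol binding protein rbp1b had 8.94 to 14.8 CPM (median 11.8) in females and 6.93 to 12.2 CPM (median 8.64) in males (log2 -0.42 ± 0.058, adjusted p = 0.00443), and both female pools were higher in each strain. The secreted retinol carrier rbp4 had 266 to 394 CPM (median 329.7) in females and 233 to 315 CPM (median 272) in males (log2 -0.27 ± 0.049, adjusted p = 0.0185). Its difference was small in AB (-0.10), where the pools overlapped, and -0.36 and -0.36 in SH and HSB, and the call was lost without SH male pool 2, HSB male pool 1 or HSB male pool 2 (adjusted p = 0.0649, 0.0608 and 0.0535). The dehydrogenase rdh12 (log2 -0.18 ± 0.035, adjusted p = 0.0297) was also female-biased, whereas rdh10a, whose product oxidizes retinol toward retinoic acid, was male-biased by 0.15 ± 0.025 (adjusted p = 0.00983). The retinoic acid receptors and the cyp26 enzymes that degrade retinoic acid did not pass. In the 12 fits that each left out 1 library, with the highest adjusted p in parentheses, the call was lost for rdh12 in 8 (0.088, without HSB male pool 1). The list of meninges and choroid plexus markers, which holds rbp4, counted 2 female-biased (rbp4 and igf2a) and 0 male-biased genes of 26, with positive fold changes in 5 and a median of -0.08. Of all genes tested, 0.314% were female-biased and 37.9% had positive fold changes, with a median of -0.019. Of the 26, 10 had an unadjusted p under 0.05. Their summed level was higher in both female pools of every strain, at 988 and 967 CPM against 952 and 935 CPM in the AB males, 1082 and 1110.2 against 1015 and 983 CPM in SH, and 1071 and 1015 against 912 and 898 CPM in HSB. These sums include rbp4 and igf2a themselves. Since rbp4 alone supplied 266 to 394 CPM in females and 233 to 315 CPM in males, the sums are no separate evidence for its direction. The part of these tissues in the female bias of rbp4, igf2a and ptgdsb was not tested.

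The largest sex difference of all called genes was in factor XIII A, the transglutaminase that crosslinks fibrin during clotting and other proteins of the matrix. The gene f13a1a.1 (ENSDARG00000045453) had 25.8 to 53.7 CPM (median 38.3) in the female libraries and 1.12 to 5.72 CPM (median 2.47) in the male libraries. All female libraries were higher than all male ones, by 13-fold (log2 -3.71 ± 0.26, adjusted p = 1.28e-05), with differences of -3.63 (AB), -4.20 (SH) and -3.29 (HSB). A second gene, F13A1 (2 of 3), was also female-biased, at 0.981 to 4.2 CPM (median 1.27) against 0.154 to 0.663 CPM (median 0.427), without overlap (log2 -1.21 ± 0.21, adjusted p = 0.0127). The remaining measured copy, f13a1b, had a log2 fold change of -0.073 (adjusted p = 0.771). The symbols mark the first 2 as members of a duplicated family, and how reads were divided between near-identical copies was not tested. None of 10 blood genes passed, and their summed level was 1959 to 2609 CPM in females and 2034 to 2761 CPM in males. The 25 microglia and leukocyte markers gave no called gene either (limma, 3 at an unadjusted p under 0.05).

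Other female-biased genes high in order of size were SLC2A11, a sugar transporter (log2 -0.43 ± 0.077, adjusted p = 0.0185), frem1a, a basement membrane protein (log2 -0.41 ± 0.066, adjusted p = 0.00929) and CCDC108 (log2 -0.34 ± 0.068, adjusted p = 0.0335). Levels of frem1a were 11 to 17.6 CPM (median 13.8) in females and 8.72 to 11.8 CPM (median 10.8) in males, and those of SLC2A11 9.39 to 14.5 CPM (median 10.7) and 7.15 to 9.75 CPM (median 7.86). For all 3 genes both female pools were higher in each strain. The call of frem1a held whichever library was left out. The call of SLC2A11 was lost without HSB male pool 1, HSB female pool 1 or SH female pool 2 (adjusted p = 0.059, 0.0556 and 0.0526), and that of CCDC108 without any 1 of 11 libraries (up to 0.0997, without HSB male pool 1). CCDC108 and ccdc173 (log2 -0.26 ± 0.052, adjusted p = 0.0319) carry the names cfap65 and cfap210 in the newer name table, genes of cilia and flagella. Without 1 library the call failed for ccdc173 in 12 (0.0925, without SH female pool 1).

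Several female-biased genes are known from growing or differentiating neurons. They were named after their values had been seen, and their differences were small. The growth cone gene gap43 averaged 278 ± 16.4 CPM in females against 249.6 ± 19.5 CPM in males (SD, n = 6; log2 -0.16 ± 0.024, adjusted p = 0.00738). Both copies of sox4, a transcription factor of immature neurons, were called, sox4b with -0.25 ± 0.048 (adjusted p = 0.0265) and sox4a with -0.098 ± 0.021 (adjusted p = 0.047). The neuronal differentiation factor neurod6a (log2 -0.21 ± 0.032, adjusted p = 0.00756) and marcksl1b (log2 -0.095 ± 0.019, adjusted p = 0.0335) went the same way, as did the potassium channel genes kcnt1 (-0.16, adjusted p = 0.00797) and kcnq5a (-0.17, adjusted p = 0.0353). The ion transport regulator fxyd6 was 1 of the 5 female-biased genes without overlap over the 12 libraries, at 155 to 174 CPM (median 164) in females and 143 to 152 CPM (median 148) in males (log2 -0.15 ± 0.024, adjusted p = 0.00929). Other neuron genes went the other way. The neurofilament gene nefma was male-biased (log2 0.15 ± 0.031, adjusted p = 0.044), a call lost in 10 of the 12 fits without 1 library. All 6 measured neurofilament genes had positive fold changes. The microtubule-associated gene MAP1B was also male-biased, at 0.10 to 0.18 over the alternatives, with its call lost in 9 of the 12 fits. None of the 35 measured cell cycle genes passed (limma, 3 at an unadjusted p under 0.05), and their median log2 fold change was 0.012. Calls were lost in fits without 1 library for sox4b in 7 (0.0805, without HSB male pool 1), sox4a in 11 (0.131, without HSB male pool 1), marcksl1b in 11 (0.0992, without HSB male pool 1) and kcnq5a in 10 (0.105, without HSB male pool 1). Over all 21 alternatives on 12 or fewer libraries, which include rescaling and leaving out a strain, these 4 calls were lost in 11, 17, 17 and 16. Those of gap43, neurod6a, kcnt1 and fxyd6 were lost in 3, 2, 3 and 3.

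Transporters of amino acids were among the male-biased genes with the lowest adjusted p. Apart from slc25a18, which the study had named, the transporters given here were picked after their values had been seen. No list of transporters was counted. The mitochondrial glutamate carrier slc25a18 had 17.1 to 18.3 CPM (median 17.8) in females and 23.8 to 28.1 CPM (median 26.4) in males. These narrow ranges did not overlap (log2 0.53 ± 0.04, adjusted p = 2.19e-05), and the difference was 0.41 (AB), 0.54 (SH) and 0.64 (HSB). The glutamine transporter slc38a3a, which in mammals is found in astrocytes, had 339.7 to 465 CPM (median 401) in females and 415 to 525 CPM (median 473) in males (log2 0.23 ± 0.02, adjusted p = 5.3e-05). For slc7a10a, a transporter of small neutral amino acids, the levels were 116 to 134 CPM (median 128) and 134 to 163 CPM (median 156) (log2 0.27 ± 0.024, adjusted p = 5.3e-05). The differences of slc38a3a in the strains were 0.24 (AB), 0.24 (SH) and 0.22 (HSB), and those of slc7a10a 0.25 (AB), 0.27 (SH) and 0.30 (HSB), so each was of similar size in the 3 strains. The creatine transporter slc6a8 (log2 0.14 ± 0.029, adjusted p = 0.0336) and the choline transporter SLC5A7 (1 of 2) of cholinergic neurons (log2 0.16 ± 0.026, adjusted p = 0.0116) were male-biased as well. Without 1 library the call failed for slc6a8 in 8 (0.105, without HSB male pool 1).

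Ion pumps and channels that set potassium and sodium gradients were male-biased in several copies. The sodium potassium ATPase, the pump that restores both gradients after neuronal firing, had 5 male-biased and 0 female-biased subunit genes of 9 measured, a family picked after its values had been seen. Of all genes tested, 0.784% were male-biased. The alpha 3 subunit atp1a3b, whose mammalian counterpart is neuronal, had 840.0 to 1195 CPM (median 1022) in females and 1009 to 1501 CPM (median 1315) in males (log2 0.32 ± 0.026, adjusted p = 2.63e-05). The others were atp1a1b (0.19 ± 0.028, adjusted p = 0.00654), atp1a1a.4 (0.51 ± 0.10, adjusted p = 0.0297), atp1a2a (0.33 ± 0.07, adjusted p = 0.0447) and the beta subunit atp1b1b (0.14 ± 0.029, adjusted p = 0.0314). The copy atp1a3a had a log2 fold change of 0.057 (adjusted p = 0.265). Calls were lost in fits without 1 library for atp1a1a.4 in 7 (0.0863, without SH male pool 2), atp1a2a in 9 (0.119, without HSB male pool 1) and atp1b1b in 7 (0.0916, without SH male pool 2). KCNJ10 encodes the inward rectifier through which glia take up potassium in mammals, and both zebrafish copies were male-biased. The copy KCNJ10 (2 of 2) had 167 to 243 CPM (median 205) in females and 209 to 316 CPM (median 303) in males (log2 0.44 ± 0.056, adjusted p = 0.00215), and KCNJ10 (1 of 2) differed by 0.20 ± 0.037 (adjusted p = 0.0235), a call lost without any 1 of 9 libraries (up to 0.08, without HSB male pool 1). Over the radial glia list, which holds both copies, atp1a1b and cyp19a1b, 3 genes were male-biased and 1 female-biased of 44, with a median of 0.0068, and markers such as slc1a3b and vim (0.08 and -0.14, adjusted p = 0.17 and 0.193) did not pass.

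The gene list with the largest number of called genes was that of oligodendrocytes, the cells that wrap axons in myelin. Of 45 measured oligodendrocyte and myelin genes, 14 were male-biased and 1 was female-biased, against 0.784% and 0.314% of all genes. By share, the shorter list of cartilage and bone markers had more male-biased genes (7 of 20). Positive fold changes were seen for 32 of the 45 (against 37.9% of all genes), and the median log2 fold change was 0.097 against -0.019 over all genes. The male-biased members included some regulators and some products of these cells, while most members of the list did not pass. Among regulators were olig2, a transcription factor of the lineage (log2 0.27 ± 0.042, adjusted p = 0.00877), nkx6.2 (0.20 ± 0.028, adjusted p = 0.00431) and myrf, the factor that turns on myelin genes (0.19 ± 0.028, adjusted p = 0.00654). Levels of olig2 were 49.7 to 57.1 CPM (median 52.1) in females and 59.2 to 69.5 CPM (median 63.8) in males, without overlap, and nkx6.2 did not overlap either (36.7 to 44.4 CPM (median 40.6) and 44.6 to 48.9 CPM (median 47.4)).

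Structural myelin genes differed by similar amounts. Proteolipid protein plp1b had 3088 to 4472 CPM (median 3936) in females and 3393 to 5136 CPM (median 4807) in males (log2 0.22 ± 0.036, adjusted p = 0.00898), mpz differed by 0.17 ± 0.032 (adjusted p = 0.0197), and myelin basic protein mbpa, at 19507 to 30258 CPM (median 27732) and 21950.1 to 33849 CPM (median 31448), differed by 0.18 ± 0.035 (adjusted p = 0.0293). Summed over the list, SH fish had less of these transcripts in both sexes than AB and HSB fish. The sexes overlapped over the 12 libraries for all of the 14 genes but olig2 and nkx6.2, but both male pools of each strain lay above the females of that strain for 13 of the 14 genes. Enzymes of myelin lipids were called too: UGT8, which makes galactosylceramide (0.26 ± 0.031, adjusted p = 0.00139), and fa2h, which hydroxylates its fatty acids (0.17 ± 0.03, adjusted p = 0.0191). The claudins cldnk (0.22 ± 0.032, adjusted p = 0.00531) and cldn19 (0.23 ± 0.04, adjusted p = 0.0136), mag (0.12, 0.0185), cd9b (0.16, 0.0372), the connexin cx47.1 (0.23, 0.0447) and the paranodal gene CNTNAP1 (0.15, 0.0319) completed the group. The exception was cldn11a, a claudin of myelin in mammals, with 25.3 to 29.9 CPM (median 27.4) in females and 18.5 to 28.1 CPM (median 21.5) in males (log2 -0.30 ± 0.05, adjusted p = 0.00997).

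Of the 14 male-biased myelin genes, 6 (UGT8, nkx6.2, cldnk, myrf, olig2 and plp1b) kept their call whichever library was left out. The call of cldn19 was lost only without SH male pool 2 (adjusted p = 0.0503), and the other 7 lost theirs without 4 to 10 of the 12 libraries. Without 1 library the call failed for mag in 5 (0.0658, without HSB male pool 1), cd9b in 8 (0.106, without HSB male pool 1), cx47.1 in 10 (0.132, without SH male pool 2), CNTNAP1 in 9 (0.0916, without SH male pool 2), fa2h in 4 (0.0649, without SH male pool 2), mpz in 6 (0.0658, without HSB male pool 1) and mbpa in 8 (0.0865, without SH female pool 2). In AB the summed level of the 45 genes was 38792 and 39410 CPM in females against 42350 and 46499 CPM in males. It was 28428 and 30280 against 31477 and 33935 CPM in SH, and 37864 and 41881 against 45002 and 46520 CPM in HSB. The numbers in each pair are given from low to high. Most of each sum came from mbpa (19507 to 30258 CPM in females, 21950 to 33849 CPM in males). The sums thus mainly restate that called gene and are no separate evidence for the group. Genes outside the list with related roles, chosen after their values had been seen, were elovl1b, which elongates very long chain fatty acids (0.22 ± 0.028, adjusted p = 0.0022), the adhesion protein NFASC (2 of 2) of nodes and paranodes (0.22 ± 0.034, adjusted p = 0.00898) and its paranodal partner cntn1b (0.10 ± 0.022, adjusted p = 0.044), all male-biased. Calls were lost in fits without 1 library for cntn1b in 11 (0.125, without SH male pool 2).

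**Figure D3:**
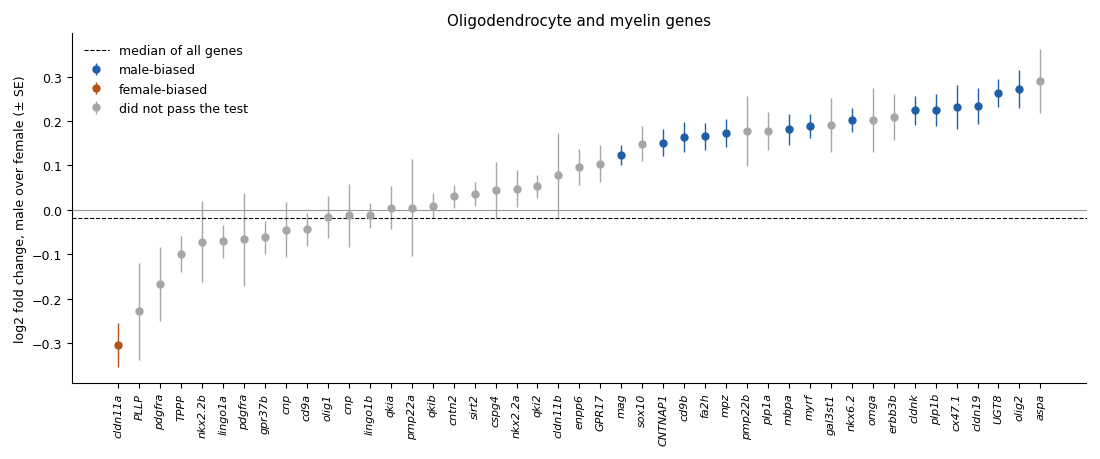
Log2 fold change (male over female) with standard error of the 45 measured oligodendrocyte and myelin genes, colored by the result of the test, with the median of all genes as a dashed line. The 14 male-biased genes lie between 0.12 and 0.27 and the female-biased gene cldn11a at -0.30.

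Collagens made up 10 of the 120 male-biased genes and 0 of the female-biased ones, out of 36 measured collagen chains (median log2 fold change 0.086, 27 positive). Of all genes tested, 0.784% were male-biased and 37.9% had positive fold changes, with a median of -0.019. Of these 10, 6 are chains of cartilage: col2a1a, col9a1, col9a3, col10a1, col11a1a and col11a2. Type X collagen (col10a1), a product of hypertrophic cartilage, had 0.906 to 4.1 CPM (median 1.28) in females and 3.55 to 14 CPM (median 4.83) in males (log2 1.68 ± 0.27, adjusted p = 0.00911). For col11a2 the levels were 0.264 to 2.78 CPM (median 0.535) and 2.49 to 4.93 CPM (median 3.12) (log2 1.64 ± 0.29, adjusted p = 0.0185), and for col2a1a 3.71 to 9.95 CPM (median 5.36) and 10.2 to 17.9 CPM (median 13.2) (log2 1.12 ± 0.21, adjusted p = 0.024). The remaining 4 were col1a1b (0.98 ± 0.18, adjusted p = 0.0219), col1a2 (0.58 ± 0.12, adjusted p = 0.034), col6a2 (0.59 ± 0.11, adjusted p = 0.028) and col5a1 (0.24 ± 0.043, adjusted p = 0.0191), which occur in many connective tissues. Only col10a1 kept its call whichever library was left out. The other 9 lost theirs without 3 to 8 libraries, col11a2 without SH male pool 2, HSB male pool 1 or HSB male pool 2 (adjusted p = 0.0649, 0.0598 and 0.0533) and col2a1a without any 1 of 6 (up to 0.0795, without SH male pool 2). Without 1 library the call failed for col1a1b in 5 (0.0649, without SH male pool 2), col1a2 in 7 (0.0979, without SH male pool 2), col5a1 in 3 (0.0602, without SH female pool 2), col6a2 in 8 (0.088, without HSB male pool 1), col9a1 in 4 (0.0637, without SH female pool 2), col9a3 in 7 (0.0933, without HSB male pool 1) and col11a1a in 4 (0.0629, without SH male pool 2).

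Of 84 measured matrix genes other than collagens, 3 were male-biased (bgna, spp1 and sparc) and 1 was female-biased (frem1a), with a median of 0.017 and 47 positive. For this list and the 2 below, the shares of all genes were 0.784% male-biased, 0.314% female-biased and 37.9% positive, with a median of -0.019. Biglycan (bgna), a small proteoglycan, differed by 0.54 ± 0.12 (adjusted p = 0.0457), a call lost without any 1 of 10 libraries (up to 0.129, without HSB male pool 1). Osteopontin (spp1), a bone matrix protein, had 0.664 to 2.32 CPM (median 1.27) in females and 2.02 to 7.83 CPM (median 3.59) in males (log2 1.16 ± 0.18, adjusted p = 0.00756). Of 20 cartilage and bone markers, which share 8 genes with the collagens, 7 were male-biased and 0 female-biased, 19 had positive fold changes and the median was 0.48. Their summed level was 172 to 219 CPM in females and 211 to 242 CPM in males, and the male pools were higher in each strain. This sum includes the 7 called genes and is no separate evidence for the group. Of 16 inner ear markers 3 were male-biased: sparc (0.22 ± 0.026, adjusted p = 0.00142), which is also a general matrix gene, tectb, a tectorin of the membranes over hair cells (0.96 ± 0.16, adjusted p = 0.00983), and otomp, a matrix protein of otoliths (0.86 ± 0.15, adjusted p = 0.0127). Levels of otomp were 1.92 to 4.24 CPM (median 2.46) in females and 4.25 to 9.02 CPM (median 5.02) in males. The summed level of the ear markers was 959.6 to 1097 CPM in females and 991 to 1276 CPM in males, and the hair cell genes otof and myo6b did not pass (0.08 and 0.14, adjusted p = 0.375 and 0.326). None of the markers of cartilage, ear or muscle was at 0 in any of the 12 libraries. This does not set them apart, since only 15 of all 15304 genes were at 0 in some library. The part of skull or ear tissue in the male bias of the cartilage, bone and ear genes was not tested.

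Myoglobin (mb), the oxygen-binding protein of muscle, had the largest male bias of all. It stood at 0.966 to 8.1 CPM (median 3.49) in females and 13.9 to 26.2 CPM (median 17.5) in males, with a log2 fold change of 2.47 ± 0.44 (adjusted p = 0.0185) and differences of 2.43 (AB), 2.46 (SH) and 2.52 (HSB). Its call was lost without SH male pool 2, HSB male pool 2 or SH female pool 2 (adjusted p = 0.0629, 0.0584 and 0.0514). Myosin heavy chain b (myhb) was at 0.302 to 0.728 CPM (median 0.543) in females and 0.966 to 3.69 CPM (median 1.88) in males (log2 1.21 ± 0.25, adjusted p = 0.0342), and its call was lost without any 1 of 8 libraries, AB male pool 2 among them (adjusted p = 0.0538, highest 0.101 without HSB male pool 2). These were the only muscle genes of 32 called, although 29 had positive fold changes (against 37.9% of all genes) and the median was 1.38. Without AB male pool 2 the median was 0.78, with 28 positive, and 8 of the 32 were called male-biased. The muscle sum of that library did not carry over to mb, which stood at 13.9 CPM there and at 20.2 CPM in AB male pool 1. The calcium-binding genes s100s (1.18 to 6.46 CPM (median 2.69) in females, 8.41 to 12.9 CPM (median 9.78) in males, log2 1.75 ± 0.29, adjusted p = 0.0117) and pvalb9 (1.00 ± 0.22, adjusted p = 0.0487) were male-biased too, pvalb9 with a call lost without any 1 of 10 libraries (up to 0.137, without SH male pool 2).

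In females the levels of these genes varied between pools of the same strain. Both mb and s100s were higher in pool 1 than in pool 2 of AB (5.85 and 1.13 CPM of mb) and SH (6.8 and 0.966) and lower in pool 1 of HSB (1.11 and 8.1). The unnamed gene si:ch211-133n4.6 followed the same order in females (0.151 to 1.09 CPM (median 0.508)) and had 2.23 to 5.02 CPM (median 2.63) in males (log2 1.71 ± 0.23, adjusted p = 0.00382).

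**Figure D4:**
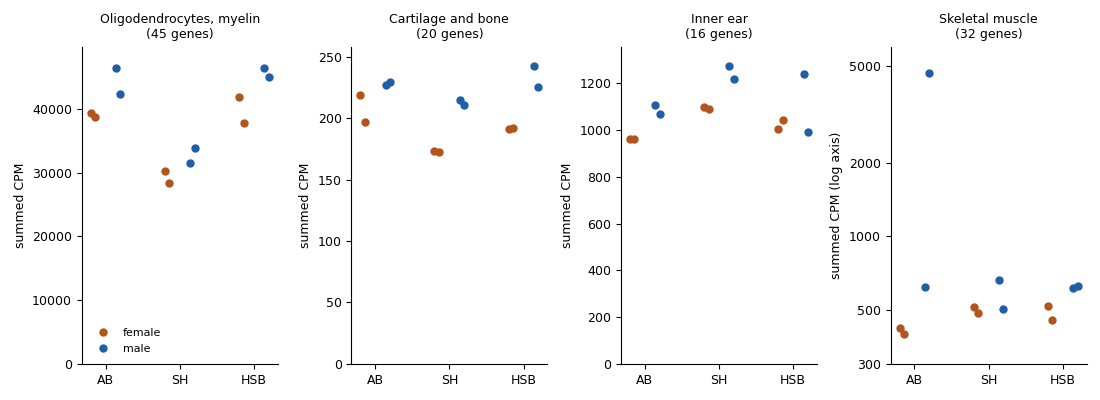
Summed CPM of the marker genes of oligodendrocytes and myelin, cartilage and bone, inner ear, and skeletal muscle (log axis) in each library of AB, SH and HSB. Myelin and cartilage sums are higher in both male pools of every strain, and AB male pool 2 stands apart at 4706 CPM in muscle. Most of the myelin sum is the called gene mbpa, and the cartilage and bone sum includes 7 called genes.

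Several male-biased genes had little or no annotation. The gene si:dkey-238o13.4 (ENSDARG00000078847) had 30.4 to 68.1 CPM (median 43) in females and 56.9 to 144 CPM (median 87.8) in males (log2 1.06 ± 0.066, adjusted p = 4.42e-06), with overlap over the 12 libraries but both male pools higher in each strain. The gene si:ch211-131k2.2 (ENSDARG00000096645) had 3.25 to 4.95 CPM (median 4.38) and 6.9 to 9.91 CPM (median 7.4), without overlap (log2 0.81 ± 0.066, adjusted p = 2.76e-05). Another, si:dkey-222f2.1 (log2 0.78 ± 0.15, adjusted p = 0.0265), did not overlap either but lost its call without any 1 of 8 libraries (up to 0.0767, without HSB male pool 2). Among antiviral genes switched on by interferon, a set assembled after the calls were known, 3 of 18 measured were male-biased: mxe (0.62 ± 0.13, adjusted p = 0.0382), the RNA sensor dhx58 (0.43 ± 0.085, adjusted p = 0.0326) and HELZ2 (2 of 2) (0.40 ± 0.085, adjusted p = 0.0382). Calls were lost in fits without 1 library for mxe in 10 (0.102, without SH female pool 2), dhx58 in 8 (0.101, without HSB male pool 1) and HELZ2 (2 of 2) in 11 (0.112, without SH male pool 2). Their relatives isg15, rsad2 and irf7 did not pass (0.19, 0.17 and -0.0060, adjusted p = 0.709, 0.415 and 0.987). Nor did ifih1 and mxd, which went the other way (-0.14 and -0.19, adjusted p = 0.303 and 0.449). Of the 18 genes, 13 had positive fold changes, against 37.9% of all genes, of which 0.784% were male-biased.

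Several lists held no called gene (limma). These were the 39 immediate early genes, 33 genes of sterol synthesis, 24 of monoamine synthesis and transport and 28 vessel markers, with 2, 5, 6 and 6 genes at an unadjusted p under 0.05. Besides pmchl, genes that the study named and that did not pass were ckmt1, fos, gabbr1a, gabbr1b and gdpd5a. The study did not name them as sex-biased genes in RNA-seq. It listed ckmt1 and gdpd5a as highly connected members of a group of coexpressed genes that it linked to sex, as a trend after correction. It chose fos, gabbr1a and gabbr1b for their link to stress and anxiety in other species. By qRT-PCR in other HSB and LSB fish, sampled after a behavioral test, it reported gabbr1b as female-biased. For fos and gabbr1a it reported no sex bias there. The mitochondrial creatine kinase ckmt1 had 499 to 517 CPM (median 509.7) in females and 522 to 536 CPM (median 534) in males. These ranges did not overlap, yet the difference was small (log2 0.06 ± 0.018, adjusted p = 0.148). For gdpd5a the log2 fold change was -0.15 ± 0.047 (adjusted p = 0.158), for the GABA receptor subunits gabbr1a -0.017 ± 0.041 (0.901) and gabbr1b -0.047 ± 0.023 (0.365), and for fos 0.10 ± 0.12 (0.751), where AB gave -0.28 and HSB 0.52.

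The size of the sex difference was compared between the strains. Among the 120 male-biased genes AB had a median difference of 0.22, SH of 0.24 and HSB of 0.28, and HSB had the largest of the 3 for 71 genes, SH for 30 and AB for 19. Among the 48 female-biased genes the medians were -0.18, -0.21 and -0.23, and the largest difference was in HSB for 18, SH for 17 and AB for 13. These are descriptions of genes chosen for their difference. The interaction of sex and strain was tested in the same limma model for all genes, and 9 genes (0.0588%) passed at a Benjamini-Hochberg adjusted p under 0.05, with 1128 at an unadjusted p under 0.05. None of the 9 was among the 168. Without AB male pool 1 the number was 68, without SH male pool 2 it was 25, and without HSB female pool 2, HSB male pool 2, SH female pool 1 or SH male pool 1 it was 4, 5, 5 and 4.

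**Figure D5:**
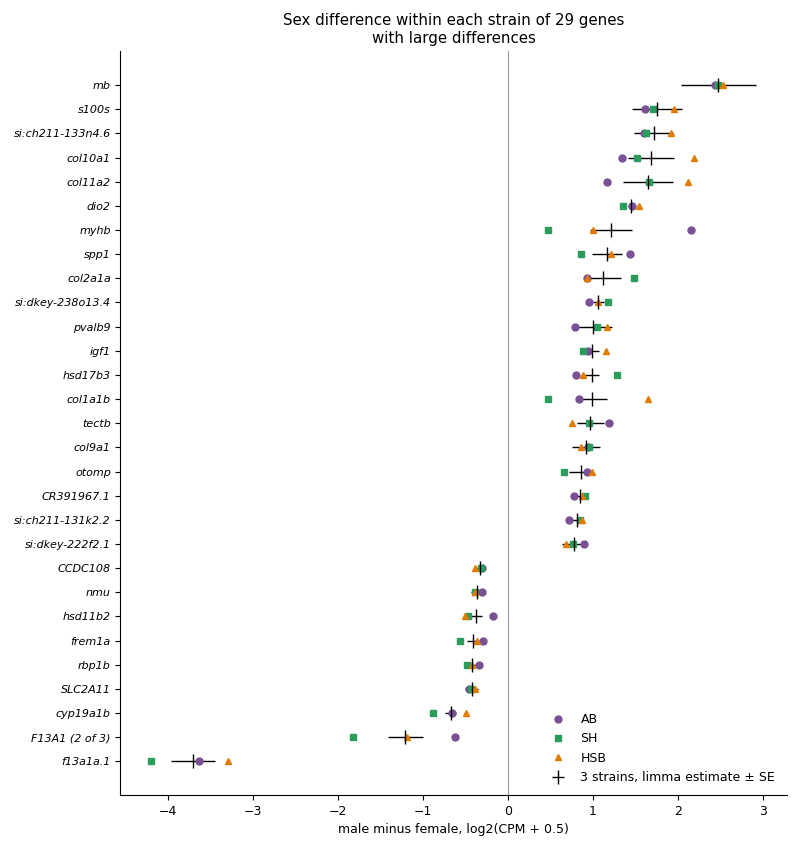
Male minus female difference on log2(CPM + 0.5) in AB, SH and HSB (symbols, means of 2 pools each) and the estimate over the 3 strains with its standard error (black) for 29 of the most different genes, of which 20 were male-biased and 9 female-biased. All symbols of a gene lie on 1 side of 0, close together for dio2 (1.36 to 1.53) and farther apart for myhb (0.47 to 2.15).

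With the 4 LSB libraries included under their labels, 7 male-biased genes (0.0457%) and 1 female-biased gene (0.00653%) passed. Apart from these counts the LSB libraries are described without a test. In the pools numbered 1, dio2 stood at 50.4 CPM in the library labelled female and 117 CPM in that labelled male, and in the pools numbered 2 at 128 and 40.1 CPM. The differences were thus 1.203 and -1.66 on the log2 scale. Values of igf1 (0.73 and -0.82), hsd17b3 (0.49 and -1.22), CR391967.1 (0.81 and -1.23), cyp19a1b (-0.54 and 0.44) and f13a1a.1 (-2.95 and 4.77) likewise had the direction of the other strains in the pools numbered 1 and the opposite one in the pools numbered 2. For ptgdsb both pairs had the direction of the other strains (-0.43 and -0.42). The muscle genes mb (-4.07 and 2.25) and myhb (-3.15 and 3.80) and the calcium-binding gene s100s (-2.48 and 2.61) had the reverse order, with the female library higher in the pools numbered 1. Cartilage and bone genes differed among themselves, with 0.38 and -1.40 for col10a1, -0.88 and 0.32 for col2a1a and -1.08 and -1.89 for spp1. Over all 120 male-biased genes, 81 had the male library higher in the pools numbered 1 (67.5%, against 55.8% of all genes) and 56 in the pools numbered 2 (46.7%, against 58%). Of the 48 female-biased genes, 29 had the female library higher in the pools numbered 1 (60.4%, against 44.2%) and 14 in the pools numbered 2 (29.2%, against 42%). Among the 20 male-biased genes with the largest differences only 8 had the male library higher in the pools numbered 1, and 10 in the pools numbered 2. The female library was higher for 7 and 2 of the 10 largest female-biased genes. For the 14 male-biased myelin genes the counts were 12 and 5, and for the 10 male-biased collagens 3 and 4.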

How the data were processed

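The authors aligned single-end reads of a TruSeq V2 library kit, which keeps no strand, to genome build Zv9 using GSNAP, summed them over genes by the union rule of HTSeq, and deposited CPM values for 15304 genes. The submitters' processing notes also name CASAVA 1.7 and edgeR. Overlapping genes and reads shared by gene copies could not be told apart. All 16 columns were matched to samples by name, with 0 others. Depth was estimated from the step between low CPM values, taken to be a single read, and the estimate could not be checked against counts.

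Sex differences came from limma 3.58.1 under R 4.3.3 (lmFit, eBayes with trend) on log2(CPM + 0.5) over 12 libraries, with strain and pool number as covariates, Benjamini-Hochberg adjustment over 15304 genes and a two-sided threshold of 0.05. The interaction of sex and strain was an F test in the same model. No count test was run. The script was tested on simulated data. Full values are given for the called genes of largest difference and like direction in 3 strains (20 male-biased, 10 female-biased, of which 1 is not reported here), for called members of 25 gene lists and for genes the study named. Members, lists and the exclusion of LSB were chosen with earlier results of these data known, and genes said to be picked after their values were seen carry no test beyond the fit over all genes. Lists were matched by symbol, and newer names came from a name table by gene ID. Alternatives were added constants of 0.1 and 1, a filter on a mean of at least 1 CPM, median-ratio rescaling, other uses of the pool number, and leaving out each library or strain or adding LSB. Figures used Python 3.11.15 with pandas 2.3.3, numpy 2.4.6 and matplotlib 3.10.9.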

Additional observations from a re-analysis of the deposited data

Results flagged for a closer look

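The sex difference itself varied between the strains for 9 genes (limma, F test of the interaction of sex and strain, Benjamini-Hochberg adjusted over 15304 genes). The tubulin gene TUBB2B (adjusted p = 0.000823) differed by 2.86 in SH, where both females were at 0.39 and 0.54 CPM and the males at 7.54 and 5.59 CPM, and by -0.02 in AB and -0.25 in HSB. Both sexes of SH were below all AB and HSB libraries, which had 13.7 to 21.2 CPM of TUBB2B. Several genes of the sterol pathway were lower in the males of AB and SH and higher in those of HSB: hmgcs1 (adjusted p = 0.000868; -0.27, -0.72 and 0.33 in AB, SH and HSB), SQLE (0.00108; -0.27, -0.74 and 0.36), fdps (0.0497; -0.13, -0.32 and 0.26) and idi1 (0.0497; -0.19, -0.34 and 0.11). The prolactin-like gene prl2 (0.0174) gave 0.40, 0.14 and -0.76, and the genes zgc:194659 (0.0174), h1fx (0.0181) and zgc:92880 (0.0497) gave -0.77, -0.17 and 1.38 in HSB against 0.16, 0.43 and 1.67 in SH and -0.05, -0.14 and -0.04 in AB.

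Of the 30 genes with the largest differences, 3 had a library far from the other 5 of its sex by Dixon's criterion, out of 60 groups examined, where chance gives about 1 in 20. They were col10a1 in AB female pool 1 (4.099 CPM, the highest of the females), and otomp and si:ch211-133n4.6 in HSB male pool 2 (9.02 and 5.02 CPM, the highest of the males).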

How the results depend on the processing

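Against 168 called genes (120 male-biased, 48 female-biased), all 16 libraries with LSB gave 8 (7 and 1), and the model without AB, SH or HSB gave 81 (58 and 23), 57 (46 and 11) and 39 (29 and 10). Leaving out 1 library gave 84 to 176 (60 to 125 and 24 to 51). Pool numbers carry no stated pairing and deviated together only in places (correlations of -0.139 to 0.311 between groups). No replicate block gave 109 (85 and 24), all among the 168, and a replicate block within strain gave 135. Median-ratio rescaling gave 31 female-biased genes. Constants of 0.1 and 1, the filter and the 14 libraries with the LSB pools numbered 1 gave 167, 168, 168 and 116. Of 21 alternatives on 12 or fewer libraries, 18 genes passed in every one, among them dio2, igf1, hsd17b3, inhbaa, CR391967.1, slc25a18, cyp19a1b and f13a1a.1. With all 16 libraries the adjusted p of dio2 was 0.202. The interaction gave 4 to 68 genes without 1 library and 5 with no replicate block. Signs turned only for CABZ01072856.1 (0.0034) and gabbr1b (0.063) with all 16 libraries, fos without HSB (-0.11), and gabbr1a: 0.089 with 14 libraries, 0.26 with 16, 0.0013 after rescaling, 0.021 without HSB, and -0.044 to 0.0076 without 1 library (above 0 without HSB female pool 2, 0.0070, HSB male pool 1, 0.0044, or SH female pool 1). Why calls moved was not tested. The number of pools, 6 per sex and 2 per strain and sex, limits how small a difference could be called.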
